A study of Mus musculus with 18 samples.

Results

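The genes described here are 10 that mark cytotoxic and innate-like lymphocytes, Zbtb16, Eomes, Tbx21, Prf1, Gzma, Gzmb, Nkg7, Klrg1, Klrc1 and Trdc, out of 55536 gene identifiers in the count table. They were chosen by name and matched by symbol, and all 10 passed the filter on low counts. RNA was sequenced from CD4 T cells of C57BL/6 mice in 18 libraries that form 6 groups of 3. In every mouse the CD4 T cells bore the OT-II receptor, encoded by transgenes, which recognises an ovalbumin peptide presented to CD4 T cells. The 4 peripheral groups were naive CD4 T cells of spleen and lymph nodes from Cbl-b-/-W131AOTII, Cbl-b-/- OTII, W131AOTII and OTII mice. The 2 thymic groups were CD4 single-positive thymocytes from W131AOTII and OTII mice. Peripheral cells were sorted as CD44low and CD62L positive, and every sort took Va2 positive cells without CD25. W131A is a substitution in ZAP-70, a kinase of T cell receptor signalling, and it weakens the kinase's autoinhibition. Cbl-b attaches ubiquitin to signalling proteins and so raises the threshold for T cell activation. The stated aim was to find the pathways through which Cbl-b acts in T cell anergy. Several W131AOTII and Cbl-b-/-W131AOTII mice were used per group, but the labels read here do not tie mice to libraries or give their age. The p-values therefore measure the spread between these libraries, which may in part be technical.

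Cytotoxic lymphocytes kill by releasing granules that hold perforin, which opens the target cell's membrane, and granzymes, proteases that then enter it. T-bet (Tbx21) and Eomes are T-box transcription factors that switch on this programme in CD8 T cells and natural killer (NK) cells, and T-bet also directs T helper type 1 cells. PLZF (Zbtb16) is the transcription factor of innate-like T cells such as NKT cells, and Trdc encodes the constant region of the receptor chain that defines gamma-delta T cells. Naive CD4 T cells are not known for this programme. Several members were rare in these libraries, and raw counts are given throughout. Others were abundant. By mean CPM over all libraries, Trdc exceeded 92.9% of tested genes, Prf1 88.1%, Gzma 83.7% and Nkg7 77.4%.

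Column totals ran from 19708218 to 36218772 counts. Levels are in CPM, counts scaled to a common library size, with effective sizes set from the tested genes by TMM, edgeR's normalization factors. The markers of CD4 T cells and of the sort (10 genes, with Trac and Trbc2 the most abundant) summed to at least 15800 CPM in every library. Cblb itself was not absent from knockout libraries: its level ran from 82.8 to 111 CPM in Cbl-b-/-W131AOTII and from 51 to 90.5 CPM in Cbl-b-/- OTII libraries, against 146 to 177 CPM in W131AOTII and 122 to 142 CPM in OTII libraries. These peripheral ranges do not overlap, but thymic OTII libraries, which have Cbl-b, lay at 78.6 to 97.2 CPM, inside the knockout range. The labels do not say which exons the deletion removes, so a gene-level count does not settle the check of these labels. Markers of B cells summed to 5120 CPM in W131AOTII replicate 2, against 1640 to 2560 CPM in the other peripheral libraries. Markers of myeloid cells (9 genes) summed to 182 CPM in W131AOTII replicate 2 and 188 CPM in Cbl-b-/- OTII replicate 2. In the other peripheral libraries they summed to 68.6 to 124 CPM. Among NK cell markers, Klrb1c was the most abundant, and the sum of 6 stayed at or below 4.87 CPM in every library. The CD8 markers were uneven, with Cd8b1 at a mean of 167 CPM and Cd8a at 9.75 CPM over all libraries.

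The members lie apart in the genome (GRCm38 coordinates, GENCODE M21). Zbtb16 (ENSMUSG00000066687) spans chr9:48654297-48836222 on the minus strand, and Eomes (ENSMUSG00000032446) spans chr9:118478212-118486132 on the plus strand. Tbx21 (ENSMUSG00000001444) spans chr11:97098071-97115331, minus strand. The granule genes are Prf1 (ENSMUSG00000037202, chr10:61297833-61304680, plus), Gzma (ENSMUSG00000023132, chr13:113093825-113100981, minus), Gzmb (ENSMUSG00000015437, chr14:56258838-56262260, minus) and Nkg7 (ENSMUSG00000004612, chr7:43437073-43438249, plus). Klrg1 (ENSMUSG00000030114, chr6:122270596-122282882, minus) and Klrc1 (ENSMUSG00000030167, chr6:129666015-129678973, minus) start 7.4 Mb apart. Trdc (ENSMUSG00000104876, chr14:54142851-54148868, plus) sits within the locus of the receptor's alpha chain. Exons of Trdc overlap short stretches of the antisense gene Gm43434 and of the variable segment Trdv5 on the opposite strand, and exons of Eomes overlap one of the antisense gene Gm33460. No source used here gives the strand setting of the counting, so reads from these overlaps cannot be assigned to a strand.

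RefSeq promoters (GRCm38.p6, 250 bases before to 50 bases after the transcription start) were found for 7 of the 10 members. They were searched on both strands for GGTGTGA, the core letters that T-box factors bind. The motif occurred in 1 of the 7, that of Nkg7, and in 1307 of all 32851 promoters in the table (3.98%). In Nkg7 it begins at position -13 from the start. A match is a description of letters and not of binding. The promoters of Nkg7 and Prf1 are shown because these granule genes are 2 of the most abundant members. Prf1 passed the test with W131A in both periphery and thymus, and Nkg7 passed in neither. Capitals mark the motif.
Nkg7, chr7:43436888-43437187, plus strand: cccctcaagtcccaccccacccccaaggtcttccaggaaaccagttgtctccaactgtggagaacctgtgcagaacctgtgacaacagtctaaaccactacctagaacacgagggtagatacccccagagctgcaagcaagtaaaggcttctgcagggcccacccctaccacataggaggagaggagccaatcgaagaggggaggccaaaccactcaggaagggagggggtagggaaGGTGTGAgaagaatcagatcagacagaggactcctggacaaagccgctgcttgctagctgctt
Prf1, chr10:61297586-61297885, plus strand: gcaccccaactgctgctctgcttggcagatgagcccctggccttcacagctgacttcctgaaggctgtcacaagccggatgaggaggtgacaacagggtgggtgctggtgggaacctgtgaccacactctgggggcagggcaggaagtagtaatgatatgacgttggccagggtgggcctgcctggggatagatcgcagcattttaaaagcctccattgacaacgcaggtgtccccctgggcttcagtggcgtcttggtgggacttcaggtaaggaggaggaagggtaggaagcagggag

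**Figure D1:**
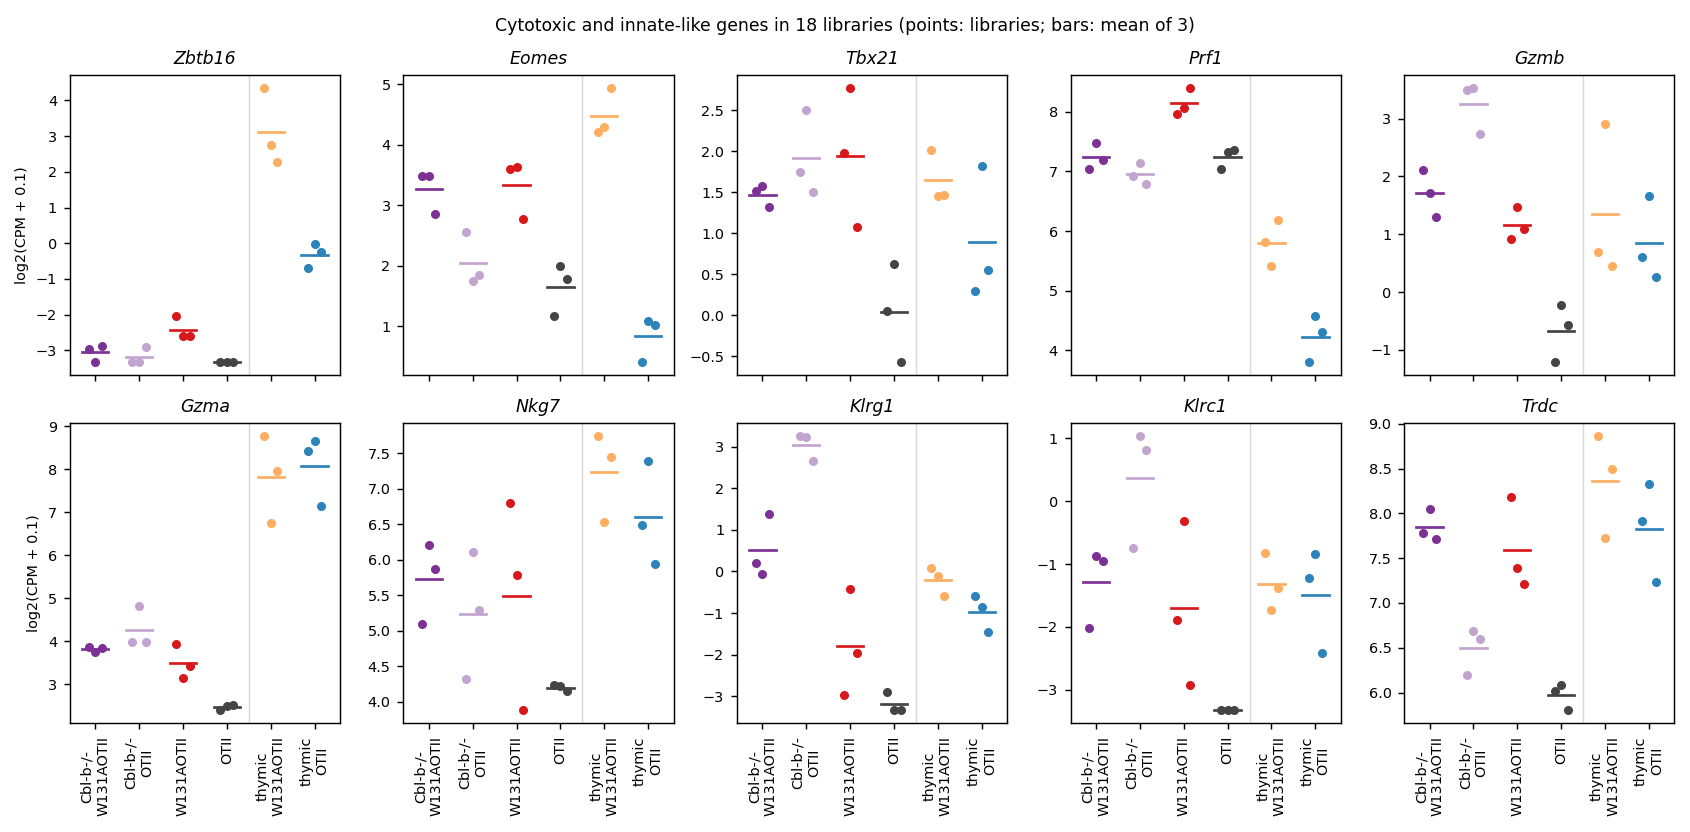
Level of each member in each library, as log2(CPM + 0.1), for the 4 peripheral groups (left of the grey line) and the 2 thymic groups; points are libraries and bars are means of 3. Klrg1 is highest in Cbl-b-/- OTII libraries (6.18 to 9.4 CPM), Prf1 in W131AOTII libraries (250 to 337 CPM), and Zbtb16 in thymic W131AOTII libraries (4.78 to 20.2 CPM).

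Members differed widely in level. Per kilobase of exon, the most abundant in peripheral OTII cells was Prf1, at 59.1 CPM per kb, followed by Nkg7 at 20 and Trdc at 16.2 CPM per kb. Gzma stood at 5.44, Eomes at 0.752, Tbx21 at 0.394 and Gzmb at 0.385 CPM per kb in the same group. Klrg1 had 1 count, and Zbtb16 and Klrc1 had 0 counts, summed over the 3 OTII libraries; a count of 0 allows a level of up to 0.0344 CPM (3 counts over the group, counting error only). In thymic OTII cells the order was different. Gzma led at 294 CPM per kb, with Nkg7 at 117, Trdc at 61.5 and Prf1 at 7.4 CPM per kb. The plot of levels by library shows these ranges.

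The spread between libraries of a group also differed between members. For Prf1 the highest library was 1.25 to 1.71 times the lowest in every group. Nkg7 varied by 7.55 times within W131AOTII and by 3.47 times within Cbl-b-/- OTII, but by 1.07 times within OTII. Within W131AOTII, Klrg1 varied by 22.7 times and Klrc1 by 22.2 times, on 1 to 22 counts a library. Throughout, fewer cells of a type and less RNA per cell cannot be told apart in bulk RNA.

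W131A in peripheral cells. This comparison asks what the weakened autoinhibition of ZAP-70 does to naive CD4 T cells that have Cbl-b. In W131AOTII cells 4 of the 10 members rose over OTII cells and 0 fell: Eomes, Tbx21, Prf1 and Trdc. For comparison, 1.93% of all 15204 tested genes passed the threshold (1.68% higher, 0.25% lower). The members' median log2 fold change was 1.84 (1.72 with the members absent from OTII set at their bound), against 0.00 over all tested genes. All 10 members had a positive fitted change. W131AOTII libraries lay all above OTII libraries for 8 members, as for 10.7% of tested genes. Of tested genes, 8.54% lay wholly below and 19.2% did not overlap in either direction.

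Both T-box factors passed. Eomes had 422, 382 and 212 counts in W131AOTII libraries, against 64, 114 and 93 counts in OTII libraries. Every W131AOTII library exceeded every OTII library, and the mean was 10.3 ± 3.1 CPM in W131AOTII and 3.12 ± 0.9 CPM in OTII (SD, n = 3 each). The fitted log2 fold change was 1.73 ± 0.31 (SE; edgeR quasi-likelihood test, adjusted p 0.00358), and the call held without any 1 library. Tbx21 had 135, 209 and 63 counts in W131AOTII, against 28, 42 and 16 counts in OTII. The groups did not overlap in CPM, although the lowest W131AOTII library (2.01 CPM) lay close to the highest OTII library (1.44 CPM). Its log2 fold change was 2.08 ± 0.47 (edgeR adjusted p 0.0217; 7.1e-06 to 0.149 over 14 alternatives). Tbx21 lost the call without W131AOTII replicate 2, OTII replicate 1 or OTII replicate 3 (adjusted p 0.108 to 0.149). W131AOTII replicate 2 is the library with the high B cell markers and the highest Tbx21 level of its group; without it the log2 fold change was 1.58.

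Of the granule genes, Prf1 rose. It had 8837, 8361 and 10569 counts in W131AOTII libraries, against 3965, 4723 and 4589 counts in OTII libraries, or 285 ± 45.4 CPM in W131AOTII and 153 ± 17.8 CPM in OTII (SD, n = 3 each). All W131AOTII libraries were above all OTII libraries, with a log2 fold change of 0.90 ± 0.20 (edgeR adjusted p 0.0156; 5.3e-07 to 0.113 over 14 alternatives). The call was lost without W131AOTII replicate 3 or OTII replicate 1 (adjusted p 0.0643 to 0.113). Gzmb had 63, 83 and 64 counts in W131AOTII, against 10, 22 and 16 counts in OTII. These ranges do not overlap, but the log2 fold change of 1.96 ± 0.58 missed the threshold (edgeR adjusted p 0.115; 3.7e-05 to 0.442 over 14 alternatives). Gzma had 539, 271 and 335 counts in W131AOTII, against 156, 162 and 158 counts in OTII, with a log2 fold change of 1.08 ± 0.43 (edgeR adjusted p 0.365).

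Nkg7 and Trdc varied together within W131AOTII. Trdc had 10264, 5220 and 4641 counts in W131AOTII libraries, against 1939, 1980 and 1560 counts in OTII libraries. The groups did not overlap, at 202 ± 77.5 CPM in W131AOTII and 62.8 ± 6.11 CPM in OTII (SD, n = 3 each), and the log2 fold change was 1.69 ± 0.29 (edgeR adjusted p 0.00196). Nkg7, a granule membrane protein of cytotoxic lymphocytes, had 3913, 1711 and 461 counts in W131AOTII, against 562, 541 and 492 counts in OTII. Replicate 3 of W131AOTII was below every OTII library in CPM, and the log2 fold change of 1.72 ± 0.61 missed the threshold (edgeR adjusted p 0.269); without that library it was 2.18 and passed (adjusted p 0.0144; 9.2e-22 to 0.642 over 14 alternatives). The 4 measured gamma-delta T cell markers (Sox13, Trgv2, Trdv4 and Cd163l1, none at 0 in all libraries of a group) summed to 41.9, 16.9 and 6.72 CPM in W131AOTII replicates 1, 2 and 3, against 5.59 to 7.68 CPM in OTII libraries. They ran in the same order as Trdc and Nkg7 over these libraries, and their part in the result was not tested. Without W131AOTII replicate 1 Trdc still rose, by a log2 fold change of 1.35 (edgeR adjusted p 0.0111).

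The remaining members rested on few counts. Zbtb16 had 5, 2 and 2 counts in W131AOTII, against 0 counts in OTII (edgeR adjusted p 0.216). Against a floor of 3 counts over the OTII group it was 2.67-fold higher, with the W131AOTII counts taken as observed. Klrc1, a lectin-like inhibitory receptor chain of NK cells, had 6, 22 and 1 counts in W131AOTII, against 0 counts in OTII, 8.61-fold higher against the same floor. Klrg1, another inhibitory receptor of this kind, had 1, 20 and 5 counts in W131AOTII, against 1, 0 and 0 counts in OTII, a ratio of 23.2 (95% counting interval 3.8 to 949). Most of the Klrg1 and Klrc1 counts came from W131AOTII replicate 2, where the NK cell markers summed to 3.73 CPM, against 0.538 and 0.223 CPM in replicates 1 and 3. Ncr1, a defining NK cell marker, was at 0.739 CPM in that library and at 0 in the other W131AOTII libraries; its part in these counts was not tested. Neither receptor passed (edgeR adjusted p 0.0818 for Klrg1, 3.8e-04 to 0.671 over 14 alternatives, and 0.0582 for Klrc1, 2.4e-04 to 0.333). Klrg1 passed without W131AOTII replicate 1 (adjusted p 0.0149) and Klrc1 without W131AOTII replicate 3 (adjusted p 0.0189).

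**Figure D2:**
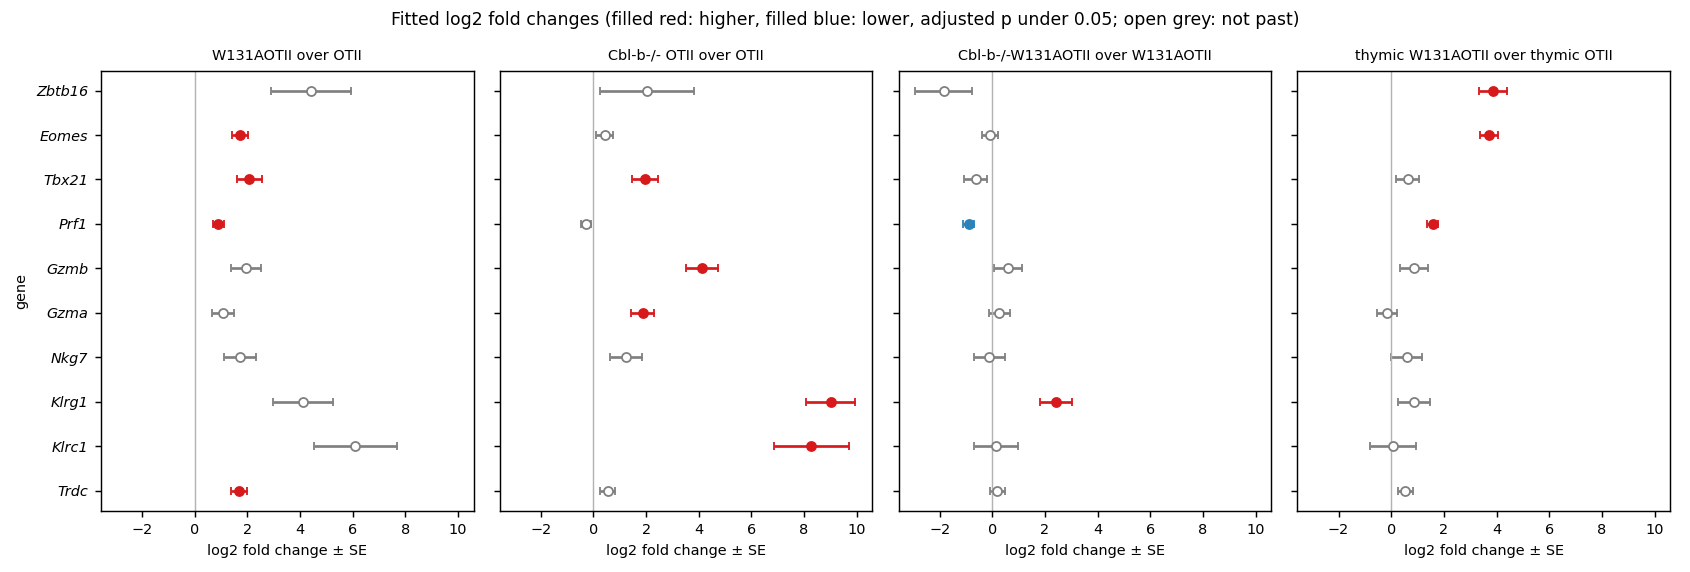
Fitted log2 fold change of each member with its standard error in 4 comparisons; filled points passed an edgeR adjusted p of 0.05 and open grey points did not. In W131AOTII over OTII 4 members are filled, in Cbl-b-/- OTII over OTII 5 are, and in thymic W131AOTII over thymic OTII 3 are. Values for Klrg1, Klrc1 and Zbtb16 against OTII depend on the fit's handling of 0 or 1 count.

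Related genes moved as follows. Of 18 tested partners of T-bet and Eomes 5 rose and 0 fell in W131AOTII (median log2 fold change 0.63). Il2rb, a receptor chain for interleukins that sustain memory and NK cells, had a mean of 269 ± 48.8 CPM in W131AOTII and 55.2 ± 6.81 CPM in OTII (SD, n = 3 each), a log2 fold change of 2.28 ± 0.25 (edgeR adjusted p 2.1e-05). Cxcr3, a chemokine receptor that T-bet induces, changed by 2.49 ± 0.29, Bhlhe40 by 2.20 ± 0.26 and Hopx by 2.17 ± 0.26, each with W131AOTII higher. Of 22 granule and effector genes 3 rose and 0 fell (median 0.31; 0.37 with 1 gene absent from a group at its bound): the protease Ctsw (log2 fold change 1.61), Stx11, which helps granules fuse with the membrane (1.55), and the surface receptor Slamf7 (1.78). Of 20 innate-like T cell genes 2 rose and 0 fell (median 0.93), Il18rap (2.21) and Trdv4 (2.29), and of 11 killer cell receptors and adaptors 1 rose and 0 fell (median 1.40), Klrd1 (1.24), the chain that pairs with the product of Klrc1. The calls of Il2rb, Cxcr3, Bhlhe40, Hopx, Ctsw and Stx11 held without any 1 library. Slamf7 and Klrd1 lost theirs without W131AOTII replicate 1 or 2 or any of the OTII libraries (adjusted p 0.0608 to 0.11 for Slamf7 and 0.0712 to 0.244 for Klrd1). Trdv4 lost its call without W131AOTII replicate 1, OTII replicate 1 or OTII replicate 2 (0.0716 to 0.0962), and Il18rap without any of the OTII libraries (0.0507 to 0.0774).

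Loss of Cbl-b without W131A. The second comparison sets Cbl-b-/- OTII cells against OTII cells. In Cbl-b-/- OTII cells 5 members rose and 0 fell: Klrg1, Klrc1, Gzmb, Gzma and Tbx21. Over all tested genes, 8.21% passed (5.22% higher, 2.99% lower). The members' median log2 fold change was 1.91 (1.87 with absent members at their bound), against 0.04 over all tested genes. This comparison and that of W131A share the OTII libraries.

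Klrg1 was the clearest. It had 188, 204 and 181 counts in Cbl-b-/- OTII libraries, against 1, 0 and 0 counts in OTII libraries, a ratio of 700 with a 95% counting interval of 125 to 27700. The Cbl-b-/- OTII level of 8.28 ± 1.82 CPM (SD, n = 3) was the highest of the 6 groups, and the call held without any 1 library (edgeR adjusted p 2.2e-05). Klrc1 had 10, 43 and 49 counts in Cbl-b-/- OTII, against 0 counts in OTII, 41.5-fold higher against the floor of 3 counts (edgeR adjusted p 0.00344). All its Cbl-b-/- OTII libraries were above OTII, with replicate 1 lowest. The NK cell markers summed to 1.64 to 2.3 CPM in Cbl-b-/- OTII, against 0.134 to 0.323 CPM in OTII, and Ncr1 had 0, 12 and 12 counts in Cbl-b-/- OTII, against 0, 0 and 1 counts in OTII. Replicate 1 of Cbl-b-/- OTII had Ncr1 at 0 but the highest NK marker sum of its group; the markers' part in the rise of Klrg1 and Klrc1 was not tested.

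Both granzymes rose. Gzmb had 224, 250 and 192 counts in Cbl-b-/- OTII libraries, against 10, 22 and 16 counts in OTII libraries, or 9.71 ± 2.73 CPM in Cbl-b-/- OTII and 0.553 ± 0.21 CPM in OTII (SD, n = 3 each). The groups lay far apart, with a log2 fold change of 4.12 ± 0.60 that held without any 1 library (edgeR adjusted p 4.5e-04). Gzma had 316, 624 and 462 counts in Cbl-b-/- OTII, against 156, 162 and 158 counts in OTII. It did not overlap between the groups (log2 fold change 1.87 ± 0.43, edgeR adjusted p 0.0171; 3.9e-23 to 0.135 over 14 alternatives). The call for Gzma was lost without Cbl-b-/- OTII replicate 2 or any of the OTII libraries (adjusted p 0.0546 to 0.0917). Prf1, by contrast, had 2431, 3102 and 3265 counts in Cbl-b-/- OTII, against 3965, 4723 and 4589 counts in OTII; its CPM ranges overlapped and its log2 fold change was -0.29 ± 0.20 (95% interval -0.72 to 0.13, edgeR adjusted p 0.371).

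Of the transcription factors, Tbx21 had 65, 122 and 80 counts in Cbl-b-/- OTII, against 28, 42 and 16 counts in OTII. Its libraries did not overlap, and its log2 fold change of 1.96 ± 0.48 passed (edgeR adjusted p 0.0191; 5.7e-05 to 0.114 over 14 alternatives), but not without Cbl-b-/- OTII replicate 2, OTII replicate 1 or OTII replicate 3 (adjusted p 0.0581 to 0.114). Eomes had 116, 72 and 102 counts in Cbl-b-/- OTII, against 64, 114 and 93 counts in OTII, overlapping ranges with a log2 fold change of 0.42 ± 0.32 (95% interval -0.28 to 1.11). Zbtb16 had 0, 0 and 1 counts in Cbl-b-/- OTII and none in OTII, which is under the floor in both groups. Trdc had 1464, 2270 and 2827 counts in Cbl-b-/- OTII, against 1939, 1980 and 1560 counts in OTII (log2 fold change 0.54 ± 0.28, edgeR adjusted p 0.246), and Nkg7 had 395, 1511 and 1142 counts in Cbl-b-/- OTII, against 562, 541 and 492 counts in OTII (1.22 ± 0.61, edgeR adjusted p 0.228). Gamma-delta T cell markers summed to 7.8 to 13.5 CPM in Cbl-b-/- OTII and 5.59 to 7.68 CPM in OTII; their part in the members' values was not tested. In CPM, 7 members had Cbl-b-/- OTII libraries all above OTII libraries, Trdc and Nkg7 among them, as did 14.9% of tested genes; 15.3% of tested genes lay wholly below and 30.3% did not overlap in either direction.

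Among related genes, 6 of 18 partners of T-bet and Eomes rose and 1 fell in Cbl-b-/- OTII (median log2 fold change 0.77). Cxcr3 averaged 20.7 ± 2.02 CPM in Cbl-b-/- OTII and 2.53 ± 0.45 CPM in OTII (SD, n = 3 each), a log2 fold change of 3.03 ± 0.29. Hopx changed by 1.81 ± 0.26 and the interleukin receptor chain Il15ra by 0.74 ± 0.14; edgeR adjusted p-values of these 3 ran from 1.1e-05 to 0.00439, and all held without any 1 library. Of 22 granule and effector genes 4 rose and 0 fell (median 0.51). These were Stx11 (log2 fold change 1.20), the granule proteoglycan Srgn (0.84), the granzyme inhibitor Serpinb9 (0.57) and Ifng, the gene of the cytokine interferon gamma, which had 3, 15 and 9 counts in Cbl-b-/- OTII and 0, 2 and 0 counts in OTII. Of 20 innate-like T cell genes 3 rose and 0 fell (median 0.72): Slamf6 (0.42), Sh2d1a (0.70) and Id2 (0.75). Of 11 killer cell receptors and adaptors other than the members, 0 passed by edgeR (median 1.27). DESeq2 called 3 of them, and 2067 of 14186 genes. An unadjusted edgeR p under 0.05 was found for 6, and the share of all tested genes at it was not counted. Stx11 and Srgn lost the call without OTII replicate 3 (adjusted p 0.0718 and 0.0797). Without Cbl-b-/- OTII replicate 2, calls were lost for Serpinb9, Ifng, Slamf6, Sh2d1a and Id2; without OTII replicate 1, for Serpinb9, Ifng and Id2; without OTII replicate 2, for Serpinb9, Slamf6, Sh2d1a and Id2; without OTII replicate 3, for all 5; and without Cbl-b-/- OTII replicate 1 or 3, for Id2. The adjusted p-values of these 5 genes were then 0.0559 to 0.164.

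**Figure D3:**
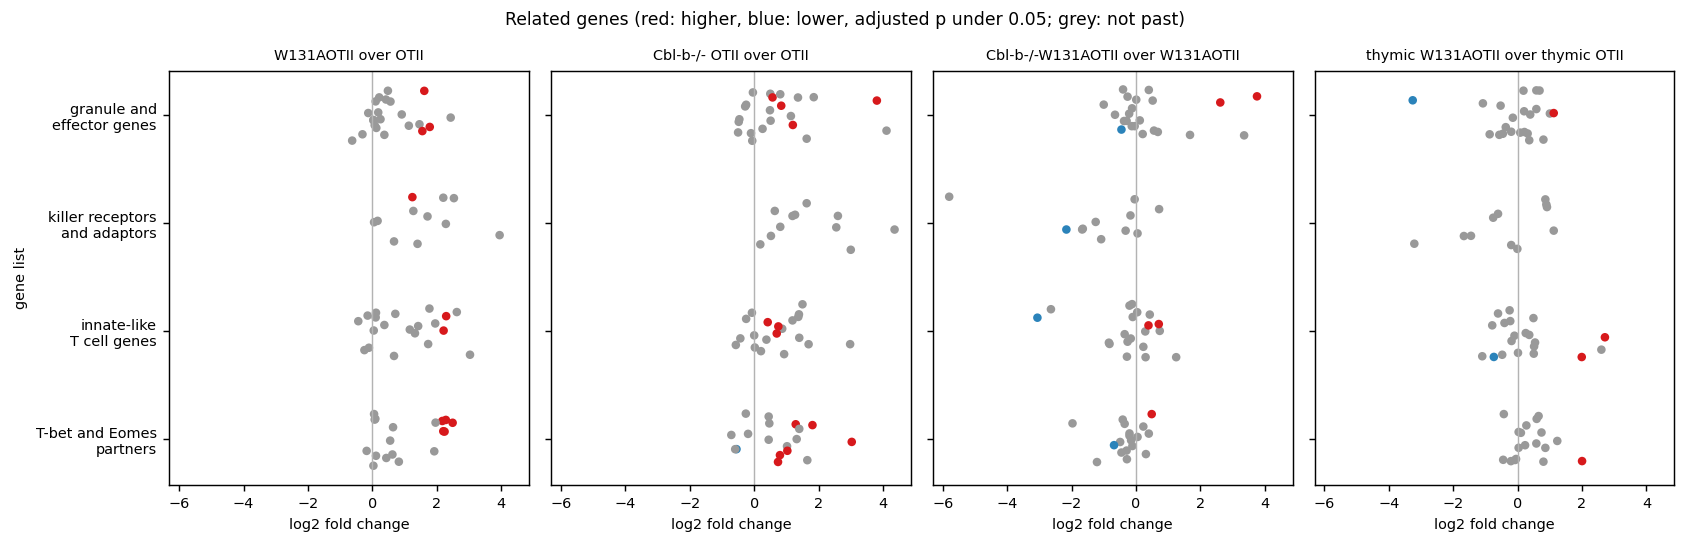
Fitted log2 fold changes of the tested genes in 4 lists related to the members, for 4 comparisons; each point is a gene, red where higher and blue where lower at an edgeR adjusted p under 0.05, grey otherwise. In W131AOTII over OTII and in Cbl-b-/- OTII over OTII the red points are most numerous among the partners of T-bet and Eomes, 5 and 6 of 18.

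Loss of Cbl-b in cells with W131A. Between Cbl-b-/-W131AOTII and W131AOTII cells 2 members passed, Klrg1 higher and Prf1 lower, against 9.25% of all tested genes (3.18% higher, 6.08% lower). The members' median log2 fold change was 0.03, as over all tested genes. Libraries did not overlap for 1 member higher and 2 lower, as for 39.8% of tested genes (19.6% higher, 20.3% lower). Prf1 had 4521, 4782 and 4235 counts in Cbl-b-/-W131AOTII, against 8837, 8361 and 10569 counts in W131AOTII. The groups did not overlap, and Prf1 fell to 153 ± 23.6 CPM in Cbl-b-/-W131AOTII, against 285 ± 45.4 CPM in W131AOTII (SD, n = 3 each; log2 fold change -0.90 ± 0.20, edgeR adjusted p 0.0122; 4.9e-07 to 0.0728 over 14 alternatives). Klrg1 had 36, 23 and 72 counts in Cbl-b-/-W131AOTII, against 1, 20 and 5 counts in W131AOTII, also without overlap (log2 fold change 2.42 ± 0.62, edgeR adjusted p 0.0244; 6.2e-05 to 0.105 over 14 alternatives). Neither call was firm. That of Prf1 was lost without Cbl-b-/-W131AOTII replicate 1 or W131AOTII replicate 3 (adjusted p 0.0533 to 0.0728), and that of Klrg1 without replicate 1 or 3 of either group (adjusted p 0.0512 to 0.105). Markers of other cells moved with this comparison. B cell markers summed to 1640 to 1790 CPM in Cbl-b-/-W131AOTII and 2280 to 5120 CPM in W131AOTII, and 9 of 10 fell. CD8 markers summed to 113 to 159 CPM in Cbl-b-/-W131AOTII and 187 to 192 CPM in W131AOTII, and 1 of 2 fell. Myeloid markers summed to 68.6 to 76.3 CPM in Cbl-b-/-W131AOTII and 76.8 to 182 CPM in W131AOTII, and 2 of 8 tested fell. The part of these markers' cells in the results for Prf1 and Klrg1 was not tested. Without W131AOTII replicate 2, Prf1 changed by -0.96 and Klrg1 by 3.93 on the log2 scale, and both passed (edgeR adjusted p 0.0281 and 0.00381).

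The other members of this comparison had values close to each other or wide errors. Eomes had 377, 294 and 204 counts in Cbl-b-/-W131AOTII, against 422, 382 and 212 counts in W131AOTII, nearly the same ranges (log2 fold change -0.09 ± 0.30, 95% interval -0.74 to 0.56). Trdc had 7504, 7058 and 6038 counts in Cbl-b-/-W131AOTII, against 10264, 5220 and 4641 counts in W131AOTII (0.19 ± 0.28, interval -0.42 to 0.80). Gzmb had 144, 85 and 68 counts in Cbl-b-/-W131AOTII, against 63, 83 and 64 counts in W131AOTII, with a log2 fold change of 0.59 ± 0.52. Counts of Tbx21 were 94, 77 and 69 in Cbl-b-/-W131AOTII and 135, 209 and 63 in W131AOTII (-0.64 ± 0.44). Gzma (491, 357 and 409 counts in Cbl-b-/-W131AOTII), Nkg7 (1169, 1985 and 1689), Klrc1 (5, 12 and 12) and Zbtb16 (1, 0 and 1) also missed the threshold. Of the related lists, 2 of 22 granule and effector genes rose and 1 fell (median -0.02). The chemokine gene Ccl4 averaged 2.21 ± 1.61 CPM in Cbl-b-/-W131AOTII and 0.355 ± 0.115 CPM in W131AOTII (SD, n = 3 each; log2 fold change 2.62 ± 0.69, edgeR adjusted p 0.0264), and Ifng also rose, with 17, 4 and 10 counts in Cbl-b-/-W131AOTII and 0, 1 and 1 counts in W131AOTII, while Rab27a, which docks granules, fell by 0.45. Of killer cell receptors and adaptors 1 of 11 fell, Tyrobp (-2.16), with a list median of -1.08. Of 20 genes on the innate-like list, Slamf6 (0.39) and Id2 (0.71) rose and Blk (-3.06) fell (median -0.11). The 10 B cell markers had a median of -2.81 here, and their part in the fall of Blk was not tested. Of 18 partners of T-bet and Eomes, Il15ra rose (0.49) and Runx3 fell (-0.68; median -0.24). All 9 of these calls were lost without W131AOTII replicate 2, and each without 3 to 6 of the 6 libraries (adjusted p 0.0543 to 0.45).

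W131A in cells that lack Cbl-b. Set against Cbl-b-/- OTII cells, Cbl-b-/-W131AOTII cells had Eomes and Trdc higher and Klrg1 lower, 3 of 10 members against 1.89% of tested genes (0.802% higher, 1.09% lower). The members' median was -0.11 (-0.51 with absent members at their bound), against -0.02 over all genes. Libraries did not overlap for 2 members higher and 4 lower, as for 21.1% of tested genes (11.1% higher, 10% lower). Eomes averaged 9.7 ± 2.27 CPM in Cbl-b-/-W131AOTII and 4.19 ± 1.4 CPM in Cbl-b-/- OTII (SD, n = 3 each; log2 fold change 1.22 ± 0.31, edgeR adjusted p 0.0488). Trdc averaged 231 ± 28.6 CPM in Cbl-b-/-W131AOTII and 91 ± 15.7 CPM in Cbl-b-/- OTII (1.34 ± 0.28, edgeR adjusted p 0.0149). Klrg1 fell to 1.47 ± 0.897 CPM in Cbl-b-/-W131AOTII, against 8.28 ± 1.82 CPM in Cbl-b-/- OTII (-2.49 ± 0.55, edgeR adjusted p 0.0205). None of the 3 overlapped between the groups, but each call depended on single libraries. It was lost for Eomes without replicate 1 or 2 of Cbl-b-/-W131AOTII, or replicate 2 or 3 of Cbl-b-/- OTII (adjusted p 0.0663 to 0.183; 3.5e-04 to 0.194 over 14 alternatives). The call for Klrg1 was lost without replicate 1 or 2 of either group (0.0605 to 0.117; 1.9e-06 to 0.117), and that for Trdc without Cbl-b-/-W131AOTII replicate 2 or Cbl-b-/- OTII replicate 1 (0.0533 to 0.0873; 1.0e-15 to 0.0873). Gamma-delta T cell markers summed to 16.1 to 30.7 CPM in Cbl-b-/-W131AOTII and 7.8 to 13.5 CPM in Cbl-b-/- OTII; their part in the Trdc difference was not tested. NK cell markers were lower, at 0.41 to 0.591 CPM in Cbl-b-/-W131AOTII and 1.64 to 2.3 CPM in Cbl-b-/- OTII without overlap, and their part in the fall of Klrg1 was not tested. Gzmb had 144, 85 and 68 counts in Cbl-b-/-W131AOTII, against 224, 250 and 192 counts in Cbl-b-/- OTII, a log2 fold change of -1.57 ± 0.52 that missed the threshold (edgeR adjusted p 0.128). Of related genes Ctsw (1.13) and Il2rb (1.21) were higher in Cbl-b-/-W131AOTII. Ctsw lost the call without replicates 2 or 3 of Cbl-b-/-W131AOTII, or Cbl-b-/- OTII replicate 1 (0.0535 to 0.0978), and Il2rb without Cbl-b-/- OTII replicate 1 (0.0733).

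Both changes together. Against OTII cells, Cbl-b-/-W131AOTII cells had 5 members higher and 0 lower, where 7.39% of tested genes passed (3.87% higher, 3.52% lower). Their median log2 fold change was 1.76 (1.64 with absent members at their bound), against 0.04 over all genes. Libraries did not overlap for 8 members, all higher, as for 39.7% of tested genes (19.7% higher, 20% lower). Eomes (log2 fold change 1.64 ± 0.31, edgeR adjusted p 0.0035), Trdc (1.88 ± 0.29, 4.7e-04) and Klrg1 held without any 1 library. Gamma-delta T cell markers summed to 16.1 to 30.7 CPM in Cbl-b-/-W131AOTII and 5.59 to 7.68 CPM in OTII, NK cell markers to 0.41 to 0.591 CPM in Cbl-b-/-W131AOTII and 0.134 to 0.323 CPM in OTII, and B cell markers to 1640 to 1790 CPM in Cbl-b-/-W131AOTII and 2200 to 2560 CPM in OTII. None of these ranges overlapped, and their part in the members' changes was not tested. Klrg1 had 36, 23 and 72 counts in Cbl-b-/-W131AOTII and 1, 0 and 0 counts in OTII, a ratio of 127 with a 95% counting interval of 22.4 to 5060. Gzmb rose by 2.55 ± 0.58 (edgeR adjusted p 0.0128; 7.4e-09 to 0.0619 over 13 alternatives) but not without Cbl-b-/-W131AOTII replicate 1, OTII replicate 1 or OTII replicate 3 (0.0506 to 0.0619). Klrc1 had 29 counts in Cbl-b-/-W131AOTII and 0 in OTII, 9.39-fold higher against the floor of 3 counts (edgeR adjusted p 0.0236, 9.8e-05 to 0.0849 over 13 alternatives). Klrc1 lost its call without Cbl-b-/-W131AOTII replicate 2 or any of the OTII libraries (0.0568 to 0.0849). Prf1 stood at 153 ± 23.6 CPM in Cbl-b-/-W131AOTII and 153 ± 17.8 CPM in OTII, with a log2 fold change of 0.00 and a 95% interval of -0.43 to 0.42. Of related genes, 8 of 22 granule and effector genes rose and 0 fell (median 0.67), led by Ctsw (175 ± 23 CPM in Cbl-b-/-W131AOTII and 57.1 ± 10 CPM in OTII, SD, n = 3 each). Of 20 innate-like T cell genes 4 rose and 0 fell (median 0.49), with Id2 changed by 1.42 ± 0.22 and Trdv4 by 3.03 ± 0.49. Among the partners of T-bet and Eomes 5 of 18 rose and 1 fell (median 0.51), led by Hopx (2.57 ± 0.26) and Il2rb (2.01 ± 0.25), and 1 of 11 killer cell receptors rose, Klrd1 (1.29), which lost its call without Cbl-b-/-W131AOTII replicate 2, OTII replicate 2 or OTII replicate 3 (0.0652 to 0.0989).

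Interaction in the periphery. A term for whether the 2 changes add up on the log2 scale was negative for 3 members, where 0.631% of tested genes passed (0.0395% positive, 0.592% negative): Gzmb (-3.53 ± 0.78, edgeR adjusted p 0.0393), Klrg1 (-6.61 ± 1.23, 0.0104) and Klrc1 (-8.14 ± 1.76, 0.0393). For Klrg1 and Klrc1, OTII libraries had at most 1 count, so the size of the term depends on the fit and is no measured fold. For Gzmb, the level was 3.25 ± 0.93 CPM in Cbl-b-/-W131AOTII, 9.71 ± 2.73 CPM in Cbl-b-/- OTII, 2.16 ± 0.454 CPM in W131AOTII and 0.553 ± 0.21 CPM in OTII (SD, n = 3 each). Every Cbl-b-/-W131AOTII library was below every Cbl-b-/- OTII library in CPM for Gzmb, Klrg1 and Klrc1. Each call was lost without W131AOTII replicate 2, the library with the high B cell markers (adjusted p 0.0826 for Gzmb, 0.0955 for Klrg1 and 0.137 for Klrc1). Over 20 alternatives Klrg1 ranged from 3.1e-09 to 0.161. Gzmb also lost its call without each of the other peripheral libraries except W131AOTII replicate 1 and Cbl-b-/- OTII replicate 3 (0.0522 to 0.136; 4.2e-09 to 0.161 over 20 alternatives). Klrc1 lost its call also without Cbl-b-/- OTII replicate 2, any Cbl-b-/-W131AOTII library or any OTII library (0.0659 to 0.112; 5.1e-06 to 0.206). Tbx21 missed the threshold (-2.60 ± 0.65, edgeR adjusted p 0.0851; 1.4e-04 to 0.474) and passed without Cbl-b-/- OTII replicate 3 or W131AOTII replicate 3 (0.0436 and 0.0291). Of the related genes Cxcr3 (-3.53 ± 0.39, edgeR adjusted p 2.0e-04), Bhlhe40 (-1.71) and Stx11 (-1.57) also passed. Both Bhlhe40 and Stx11 lost the call without any Cbl-b-/-W131AOTII library, Cbl-b-/- OTII replicate 1, W131AOTII replicate 2, OTII replicate 1 or OTII replicate 3, and Stx11 also without Cbl-b-/- OTII replicate 2 (0.0578 to 0.0937 for Bhlhe40 and 0.0514 to 0.138 for Stx11). Cxcr3 kept its call and averaged 10.1 ± 3 CPM in Cbl-b-/-W131AOTII, 20.7 ± 2.02 CPM in Cbl-b-/- OTII, 14.2 ± 4.44 CPM in W131AOTII and 2.53 ± 0.45 CPM in OTII (SD, n = 3 each).

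W131A in the thymus. Thymic W131AOTII cells were set against thymic OTII cells, both with Cbl-b. In thymic W131AOTII cells 3 members rose and 0 fell, Zbtb16, Eomes and Prf1, where 2.77% of tested genes passed (1.73% higher, 1.04% lower). The median was 0.74, against 0.01 over all genes, and all 3 calls held without any 1 library. Libraries did not overlap for 4 members, all higher, as for 17% of tested genes (8.57% higher, 8.4% lower). Zbtb16 had 524, 229 and 118 counts in thymic W131AOTII, against 11, 27 and 17 counts in thymic OTII. The lowest thymic W131AOTII library, at 4.78 CPM, was above the highest thymic OTII library, at 0.884 CPM, and the log2 fold change was 3.85 ± 0.53 (edgeR adjusted p 3.5e-04). Eomes had 477, 674 and 751 counts in thymic W131AOTII, against 26, 62 and 44 counts in thymic OTII, or 22.7 ± 6.67 CPM in thymic W131AOTII and 1.73 ± 0.439 CPM in thymic OTII (SD, n = 3 each). Its groups lay far apart, at a log2 fold change of 3.70 ± 0.34 (edgeR adjusted p 2.8e-06). Prf1 had 1452, 1484 and 1792 counts in thymic W131AOTII, against 295, 725 and 448 counts in thymic OTII, again without overlap (1.57 ± 0.20, edgeR adjusted p 1.2e-04).

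The granzymes and Nkg7 did not separate the thymic groups. Gzma had 11317, 3728 and 6171 counts in thymic W131AOTII, against 7244, 12307 and 3215 counts in thymic OTII, so each group held high and low libraries (log2 fold change -0.16 ± 0.39, 95% interval -1.01 to 0.69). Nkg7 had 5552, 3224 and 4290 counts in thymic W131AOTII, against 1914, 5133 and 1391 counts in thymic OTII (0.59 ± 0.59), and Trdc had 12036, 7357 and 8936 counts in thymic W131AOTII, against 5115, 9818 and 3407 counts in thymic OTII (0.54 ± 0.28, edgeR adjusted p 0.343). Gzmb had 39, 256 and 31 counts in thymic W131AOTII and 30, 93 and 25 counts in thymic OTII, with replicate 2 high in both; its log2 fold change of 0.86 ± 0.53 became -0.46 without thymic W131AOTII replicate 2. Tbx21 had 102, 92 and 66 counts in thymic W131AOTII, against 24, 105 and 31 counts in thymic OTII (0.62 ± 0.45). Klrg1 (25, 29 and 14 counts in thymic W131AOTII, against 12, 14 and 6 in thymic OTII) and Klrc1 (12, 7 and 7 in thymic W131AOTII, against 7, 14 and 2 in thymic OTII) missed the threshold as well. The 4 gamma-delta T cell markers summed to 694, 177 and 394 CPM in thymic W131AOTII replicates 1 to 3 and to 332, 800 and 232 CPM in thymic OTII replicates 1 to 3, with Sox13 the most abundant. Within each thymic group the library with the highest sum was also the highest for Gzma, Nkg7 and Trdc; the part of these cells' RNA in the members' levels was not tested. Zbtb16 was highest in thymic W131AOTII replicate 1, which also had the highest gamma-delta and NK marker sums of its group. In replicates 2 and 3 Zbtb16 was above thymic OTII as well. The part of gamma-delta and NK cells in its level was not tested.

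Of related genes in the thymus, 2 of 20 innate-like T cell genes rose and 1 fell (median log2 fold change -0.05). The chemokine receptor Cxcr6 averaged 76.9 ± 7.95 CPM in thymic W131AOTII and 19.3 ± 6.94 CPM in thymic OTII (SD, n = 3 each; 1.99 ± 0.51, edgeR adjusted p 0.045). Il4, the cytokine that innate-like T cells store as message, had 115, 66 and 34 counts in thymic W131AOTII, against 14, 8 and 6 counts in thymic OTII (2.71 ± 0.72, edgeR adjusted p 0.0494). Id3, a regulator that restrains innate-like fates, fell to 367 ± 95.6 CPM in thymic W131AOTII, against 613 ± 67.4 CPM in thymic OTII (-0.74 ± 0.20, edgeR adjusted p 0.0486). These 3 calls lay close to the threshold: those of Cxcr6 and Il4 were lost without any 1 thymic library (adjusted p 0.06 to 0.193 and 0.0551 to 0.195), and that of Id3 without any except thymic W131AOTII replicate 1 (0.0596 to 0.173). Of 18 partners of T-bet and Eomes 1 rose, Cxcr3 (2.00 ± 0.27, edgeR adjusted p 2.4e-04; median of the list 0.25). Of 22 granule and effector genes 1 rose, Stx11 (1.12), and 1 fell, Gzmc (-3.26; median of the list 0.19). Stx11 lost its call without thymic OTII replicate 1 or 3 (adjusted p 0.0548 to 0.106), and Gzmc without any thymic W131AOTII library or thymic OTII replicate 3 (0.053 to 0.0818). Of 11 killer cell receptors 0 passed by edgeR or DESeq2 (median -0.20). An unadjusted edgeR p under 0.05 was found for 3, and the share of all tested genes at it was not counted.

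**Figure D4:**
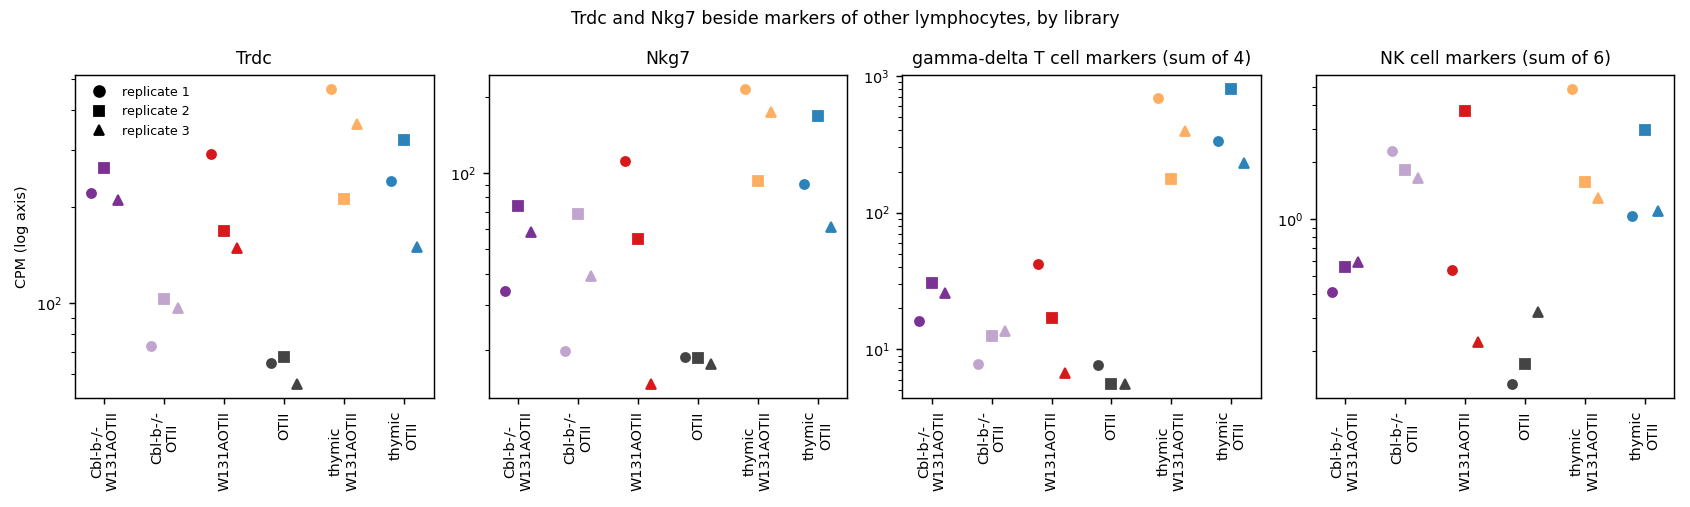
Trdc, Nkg7, the sum of 4 gamma-delta T cell markers and the sum of 6 NK cell markers in each library, in CPM on log axes; marker shapes are replicate numbers, which do not pair libraries between groups. The gamma-delta sum runs from 177 to 800 CPM in the thymic libraries and from 5.59 to 41.9 CPM in the peripheral ones, and in W131AOTII it is highest in replicate 1, as are Trdc and Nkg7.

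Periphery against thymus. In peripheral OTII cells against thymic OTII cells 8 members passed, 1 higher and 7 lower, where 18.3% of tested genes passed (7.75% higher, 10.6% lower). Libraries did not overlap for 2 members higher and 7 lower, as for 39.5% of tested genes (18.7% higher, 20.7% lower). Prf1 had 3965, 4723 and 4589 counts in peripheral OTII, against 295, 725 and 448 counts in thymic OTII, a log2 fold change of 2.99 ± 0.21 (edgeR adjusted p 1.8e-08). Gzma went the other way, with 156, 162 and 158 counts in peripheral OTII, against 7244, 12307 and 3215 counts in thymic OTII (-5.75 ± 0.49, 2.4e-07). Perforin and granzyme A, which act together in killing, were thus each abundant in a different compartment. Nkg7 (-2.54 ± 0.63, edgeR adjusted p 0.00988) and Trdc (-1.92 ± 0.29, 9.1e-05) were lower in peripheral OTII, as was Gzmb (-1.76 ± 0.59, 0.0443; 1.9e-04 to 0.242 over 14 alternatives). The call for Gzmb was lost without any peripheral OTII library or thymic OTII replicate 1 or 2 (adjusted p 0.0588 to 0.242). With peripheral OTII set at the floor of 3 counts, Zbtb16 was 21.4-fold lower (0 counts in peripheral OTII, against 55 in thymic OTII). In the same way Klrc1 was 8.96-fold lower (0 counts in peripheral OTII, against 23 in thymic OTII). Klrg1 had 1 count in peripheral OTII and 32 counts in thymic OTII, a ratio of 0.0267 (95% counting interval 0.000656 to 0.16). All 4 measured gamma-delta T cell markers fell too, Sox13 to 1.8 ± 0.409 CPM in peripheral OTII, against 323 ± 233 CPM in thymic OTII (SD, n = 3 each). Of 10 B cell markers 9 rose in peripheral OTII (median 3.72), and NK cell markers summed to 0.134 to 0.323 CPM in peripheral OTII and 1.04 to 2.95 CPM in thymic OTII. The part of these markers' cells in the members' differences was not tested. Of 20 innate-like T cell genes 2 rose and 15 fell in peripheral OTII (median -1.94), with Id2 at -2.13 ± 0.23 on the log2 scale. Of 22 granule and effector genes 3 rose and 7 fell (median -0.17), of 18 partners of T-bet and Eomes 3 rose and 7 fell (median -0.66), and of 11 killer cell receptors 1 rose, Klrd1 (2.49 ± 0.36), and 2 fell (median -1.44). The naive sort of the periphery and the CD4 single-positive sort of the thymus also differ, and sort and tissue cannot be told apart.

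With W131A, 4 members passed between periphery and thymus, where 19.2% of tested genes did (8.07% higher, 11.2% lower). Libraries did not overlap for 1 member higher and 3 lower, as for 33.1% of tested genes (15.4% higher, 17.7% lower). Prf1 was higher in peripheral W131AOTII (285 ± 45.4 CPM, against 57.1 ± 15 CPM in thymic W131AOTII; SD, n = 3 each; log2 fold change 2.32 ± 0.20, edgeR adjusted p 1.8e-07). Zbtb16 (9 counts in peripheral W131AOTII, against 871 in thymic W131AOTII; -6.78 ± 0.65) and Gzma (11.6 ± 3.37 CPM in peripheral W131AOTII and 265 ± 165 CPM in thymic W131AOTII; -4.52 ± 0.46) were lower, with edgeR adjusted p-values of 1.1e-06 and 1.9e-06. These 3 calls held without any 1 library. Eomes also fell, to 10.3 ± 3.1 CPM in peripheral W131AOTII, against 22.7 ± 6.67 CPM in thymic W131AOTII (-1.14 ± 0.30, edgeR adjusted p 0.0103; 3.5e-04 to 0.0759 over 14 alternatives), but not without peripheral W131AOTII replicate 3 or thymic W131AOTII replicate 3 (adjusted p 0.0586 to 0.0759). Nkg7 (-1.41 ± 0.60), Klrg1 (-1.53 ± 0.64) and Trdc (-0.77 ± 0.28) missed the threshold and passed without W131AOTII replicate 1 for Nkg7 (adjusted p 0.014), W131AOTII replicate 2 for Klrg1 (0.00447) and W131AOTII replicate 1 or thymic W131AOTII replicate 2 for Trdc (0.0102 to 0.0128). Of 4 gamma-delta T cell markers 3 fell (median -3.43) and all 10 B cell markers rose (median 5.83) in peripheral W131AOTII; their part in the members' differences was not tested. Of 20 innate-like T cell genes 1 rose and 13 fell (median -1.33). Of 22 granule and effector genes 4 rose and 2 fell (median 0.19), of 11 killer cell receptors 3 rose and 1 fell (median 0.48), and of 18 partners of T-bet and Eomes 6 rose and 5 fell (median 0.20).

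Whether the W131A effect differed between periphery and thymus was tested directly. No member passed by edgeR, where 0.381% of tested genes did. DESeq2 called 1 member, and 209 of 15337 genes. An unadjusted edgeR p under 0.05 was found for 7 members, and the share of all tested genes at it was not counted. Eomes came closest, with an effect of 1.73 in the periphery and 3.70 in the thymus and a difference of -1.98 ± 0.45 (edgeR adjusted p 0.0593; 1.2e-04 to 0.2 over 20 alternatives). The difference passed without OTII replicate 1 or thymic W131AOTII replicate 1 (adjusted p 0.0355 to 0.0466). For Prf1 the effects were 0.90 in the periphery and 1.57 in the thymus, a difference of -0.67 with a 95% interval of -1.28 to -0.06 (edgeR adjusted p 0.469). For Zbtb16 the peripheral counts, 9 in W131AOTII and 0 in OTII, give only a fold against the floor to set beside the thymus.

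Levels were also ordered over the 6 groups. For Eomes the means ran from thymic W131AOTII through W131AOTII, Cbl-b-/-W131AOTII, Cbl-b-/- OTII and OTII to thymic OTII; W131AOTII and Cbl-b-/-W131AOTII overlapped, as did Cbl-b-/- OTII and OTII. For Prf1 the order was W131AOTII, OTII, Cbl-b-/-W131AOTII, Cbl-b-/- OTII, thymic W131AOTII and thymic OTII, where OTII, Cbl-b-/-W131AOTII and Cbl-b-/- OTII overlapped in turn. Klrg1 and Klrc1 were both highest in Cbl-b-/- OTII, apart from the next group by mean, Cbl-b-/-W131AOTII. For Klrc1, however, W131AOTII replicate 2 (0.707 CPM) lay above the lowest Cbl-b-/- OTII library (0.5 CPM). For Tbx21 every neighbour in the order overlapped, from W131AOTII at the top to OTII at the bottom. Zbtb16 ran from thymic W131AOTII to thymic OTII to W131AOTII, each apart from the next, and was near 0 in the other 3 groups. Gzmb was highest in Cbl-b-/- OTII, which overlapped with thymic W131AOTII through its replicate 2, and lowest in OTII, apart from all others. Trdc was highest in the thymic groups, which overlapped with each other and with both Cbl-b-/-W131AOTII and peripheral W131AOTII, and lowest in OTII. Gzma and Nkg7 were highest in the 2 thymic groups, which overlapped with each other, and lowest in OTII, whose libraries lay below those of the next group by mean. For Nkg7, however, W131AOTII replicate 3 (14.7 CPM) lay below every OTII library.

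The genes whose mean-centred log2 CPM followed a member most closely over all 18 libraries, by the root mean square difference, were found among all tested genes. For Prf1 it was Socs3, at a difference of 0.20 where Prf1 itself had an SD of 1.32, followed by Sidt1 (0.37) and Pdlim4 (0.39). Trdc was followed by its neighbours Trdj1 (0.27), Trdj2 (0.31) and Trdv5 (0.32), the last of which shares exon bases with it. Nkg7 had Cd160 (0.45) and Cxcr6 (0.52), genes of killer and innate-like lymphocytes, and among the members themselves Nkg7 and Trdc were the closest pair (0.62). Tbx21 had Plscr1 (0.38) and Eomes had Adam19 (0.64). Gzmb and Klrc1 shared the decoy receptor gene Il1r2 as the closest (0.71 and 0.64), and it was second for Klrg1 (1.22, after Mir99ahg at 0.95). Gzma had Nt5dc2 (0.53) and Zbtb16 had Smtn (0.95). These are descriptions over libraries that share groups and scaling.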

How the data were processed

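RNA-seq read counts per gene, deposited by the authors as raw counts, were used for 18 libraries in 6 groups of 3. Per the submitters' processing notes, STAR 2.7.2, DESeq2 and GRCm38 were used; no source used here names the counting tool or strand setting. All 55536 identifiers matched GENCODE M21. One edgeR 4.0.16 quasi-likelihood fit (R 4.3.3, TMM factors, filterByExpr with a minimum count of 10) covered 15204 genes and 6 group means with 12 residual degrees of freedom. Adjusted p-values are Benjamini-Hochberg over all tested genes, with a threshold of 0.05. Counting intervals (95%, exact) and the floor of 3 counts cover counting error only. A fold against the floor takes the other group's count as observed, so it is not a lower 95% limit. Medians with genes at their bound use the floor in the same way. The fit was tested on simulated data. Alternatives were other scalings, no filter, DESeq2 1.42.0, fits of the compared groups, a replicate block, GC and length offsets, leaving out each library, and, chosen after seeing the data, leaving out W131AOTII replicate 2, Cbl-b-/- OTII replicate 2 and thymic OTII replicate 3. Members and gene lists were chosen with earlier results of these data known. From the lists, called genes with the lowest adjusted p were named, at most 4 per list and comparison. Some called genes of the lists are not reported here.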

Additional observations from a re-analysis of the deposited data

Results flagged for a closer look

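For 3 members the effect of W131A differed between cells lacking Cbl-b and cells with it, by the interaction test (edgeR adjusted p under the threshold), where 0.631% of all tested genes passed. The log2 difference of effects was -3.53 for Gzmb, -6.61 for Klrg1 and -8.14 for Klrc1. For Klrg1 and Klrc1, OTII libraries held at most 1 count. All 3 calls were lost without W131AOTII replicate 2 alone (adjusted p 0.0826 for Gzmb, 0.0955 for Klrg1 and 0.137 for Klrc1).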

How the results depend on the processing

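Of the values of single members and list genes under the alternatives, 2334 kept direction and side of the threshold, 284 lost the call, 62 gained it and 38 changed sign, none of these a called difference; the cause was not tested. Leaving out each library in turn, members called ranged from 2 to 5 for W131A in the periphery, 3 to 5 for Cbl-b loss without W131A, 0 to 2 for Cbl-b loss with W131A, 0 to 3 for W131A without Cbl-b, 3 to 5 for both against OTII, 3 to 3 for the thymus, 7 to 8 and 3 to 6 for periphery against thymus in OTII and in W131AOTII, 0 to 4 for the interaction and 0 to 1 for the W131A effect between tissues. With no filter, 29797 genes were tested. Members called, with all genes called in brackets, were then 10 for W131A in the periphery (772), 8 for both against OTII (1816) and 5 in the thymus (821). They were 7 for periphery against thymus in W131AOTII (3343), 6 for the interaction (832) and 5 for the effect between tissues (365). DESeq2 called 7 for W131A in the periphery (473 of 15912 genes) and 1 for the effect between tissues (209 of 15337). GC and length offsets also called 1 for that effect (107 of 15204). The compared groups alone gave 1 for Cbl-b loss with W131A (3210 of 15178) and 8 for both against OTII (3899 of 15175). The interaction called 1 with library size alone (75 of 15204 genes). It called 0 without W131AOTII replicate 2, Cbl-b-/- OTII replicate 2 and thymic OTII replicate 3 together (83 of 15204).

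Changed signs, as log2 fold changes with ranges over left-out libraries, were as follows. For Cbl-b loss without W131A, Zbtb16 ran from 0.00 to 2.48. For Cbl-b loss with W131A, Eomes was 0.05 with library size alone, 0.10 with GC and length offsets, 0.05 without the 3 libraries, and ran from -0.32 to 0.08; Nkg7 was 0.01 with library size alone and ran from -0.58 to 0.66; with GC and length offsets Gzma was -0.09 and Klrc1 -0.43, and Klrc1 ran from -0.39 to 1.64. For both against OTII, Prf1 was 0.12 with library size alone, 0.00 with the replicate block, 0.06 with offsets, and ran from -0.13 to 0.09. In the thymus Gzmb ran from -0.46 to 1.44, Gzma from -0.73 to 0.20 (0.12 with offsets) and Klrc1 from -0.34 to 0.58 (-0.35 without the 3 libraries). For W131AOTII periphery against thymus, Tbx21 was -0.08 without the 3 libraries and ran from -0.08 to 0.77, Gzmb from -1.04 to 0.68 and Klrc1 from -1.56 to 0.47. Trdc ran from -0.52 to 0.00 in the interaction, and Zbtb16 was -0.02 with DESeq2 for the effect between tissues.

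Replicate numbers do not pair the libraries: 4 of 45 same-number correlations of deviations exceeded 0.1, with a median of 0.00. With the replicate block, members called were 5, 5, 2, 2, 6, 3, 8, 4, 3 and 0 in the order of comparisons above. Of all 15204 genes, it called 262, 1074, 1074, 239, 993, 376, 2650, 2760, 87 and 47 in that order. Over all genes, W131A in the periphery called 293, against 772 with no filter, 473 with DESeq2 and 515 with the compared groups alone; Cbl-b loss without W131A called 1249, against 1907 with no filter, 786 with GC and length offsets and 2067 with DESeq2; Cbl-b loss with W131A called 1407, against 2243 with no filter, 2260 with DESeq2 and 3210 with the compared groups alone. W131A without Cbl-b called 287, against 1180 with no filter, 513 with offsets and 677 with DESeq2. Both against OTII called 1123, against 1816 with no filter, 1781 with DESeq2 and 3899 with the compared groups alone. The thymus called 421, against 821 with no filter, 647 with offsets, 806 with DESeq2, 146 with the compared groups alone and 278 without the 3 libraries. The interaction called 96, against 832 with no filter, 152 with offsets and 227 with DESeq2, and the effect between tissues 58, against 365, 107 and 209 with the same and 38 without the 3 libraries. Without the 3 libraries, Cbl-b loss called 349 genes without W131A (1249 with all libraries) and 331 with W131A (1407 with all libraries). Library size alone moved the median of all genes to 0.18 for Cbl-b loss with W131A, with 960 higher and 531 lower against 483 higher and 924 lower under TMM. The median moved to 0.16 for both against OTII (833 higher and 339 lower, against 588 and 535 under TMM) and to 0.12 for the interaction; W131A without Cbl-b gave 186 higher and 116 lower, against 122 and 165 under TMM. Depth limits Zbtb16, Klrg1 and Klrc1 in peripheral cells, where OTII libraries held at most 1 count each.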
